A study of Drosophila melanogaster with 12 samples.

Results

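The 10 genes of *Drosophila melanogaster* that encode subunits of the nicotinic acetylcholine receptor, *nAChRalpha1* to *nAChRalpha7* and *nAChRbeta1* to *nAChRbeta3*, were followed in nuclear RNA of outer photoreceptors. They were taken by their FlyBase gene IDs and symbols from a table of 13929 genes, and all 10 were present. The family was chosen by name with its CPM over genotype and age in view, above all the CPM of *nAChRalpha7* in the 12 libraries, so its levels and calls are given as a description.

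Nicotinic receptors are channels of the Cys-loop superfamily, each built from a ring of subunits that opens to cations when acetylcholine binds. Alpha subunits carry a pair of neighbouring cysteines that forms part of the binding site, and beta subunits lack it and assemble with alpha subunits. Acetylcholine is the main excitatory transmitter of the insect brain, whereas fly photoreceptors release histamine onto chloride channels of the same superfamily.

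The 4 groups were Rh1>ClkDN at D10, Rh1>ClkDN at D1, Rh1>Ctrl at D10 and Rh1>Ctrl at D1, with 3 libraries each and 400 pooled male flies per library. Rh1>ClkDN flies expressed a dominant negative form of Clock, the activator of the circadian clock, and Rh1>Ctrl flies expressed LacZ in its place. All flies were mutant for *white*, but the study states that the flies it used had pigmented eyes. They carried rh1-GAL4, which drives both transgenes only in outer photoreceptors, and UAS-GFP-Msp300KASH, which tags the nuclei of those cells for enrichment. They were kept in a 12:12 light and dark cycle at 25 degrees C and collected at ZT 9, after being aged for 1 day (D1, day 2 in the sample titles) or 10 days (D10).

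Total counts per library lay between 1356529 and 5635951, a range of 4.15-fold, and were lowest in replicate 2 of Rh1>Ctrl at D10. That library stood apart from its replicates, and its chi-square against them was 70.1 and 37.9 per degree of freedom. Replicate 3 of Rh1>Ctrl at D1 stood apart too, with 13097 genes counted against 9933 and 10180 in its replicates. So did replicate 1 of Rh1>ClkDN at D1, whose chi-square per degree of freedom was 15.9 and 15.6 against its replicates and 3.44 between those, and whose inner photoreceptor markers summed to 181.6 CPM against 39.6 and 45.4. The nuclei carried the markers of outer photoreceptors in every group. The 6 markers of these cells (*ninaE*, *trp*, *norpA*, *ninaC*, *chp* and *Arr1*) summed to between 29632.4 and 30758 CPM in Rh1>ClkDN at D10, 21879.7 and 29307.1 in Rh1>ClkDN at D1, 65327.3 and 78285.5 in Rh1>Ctrl at D10, and 48220.5 and 82516 in Rh1>Ctrl at D1. All 6 were lower in Rh1>ClkDN at both ages. CPM are counts divided by the TMM-normalized library total, on the usual scale. In these bulk samples, fewer nuclei of a type and less RNA per nucleus cannot be told apart.

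*nAChRalpha7* (FBgn0086778, BDGP6 chromosome X from 19327075 to 19348447, minus strand) is one of the alpha subunits most like the vertebrate alpha7 subunit, and acts in the giant fibre escape circuit of the fly. Expression of *nAChRalpha7* was 2880.7, 3155.1 and 2892.3 CPM in Rh1>ClkDN at D10, and 638, 930.7 and 928.6 CPM in Rh1>ClkDN at D1. It was 126.7, 68.55 and 81.85 CPM in Rh1>Ctrl at D10 and 63.66, 53.63 and 57.86 CPM in Rh1>Ctrl at D1. The 4 groups did not overlap, and every Rh1>ClkDN library was above every Rh1>Ctrl library. Behind these levels stood between 13308 and 14661 counts in Rh1>ClkDN at D10, and as few as 99 counts in replicate 2 of Rh1>Ctrl at D10.

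The fitted level of *nAChRalpha7* was 31.3-fold higher in Rh1>ClkDN than in Rh1>Ctrl at D10, a log2 fold change of 4.97 (standard error 0.28). At D1 it was 14.6-fold higher, a log2 fold change of 3.87 (standard error 0.19). A call needed a fold change over 1.5 and a p under 0.05 in edgeR's quasi-likelihood test after Benjamini-Hochberg adjustment. At D10, 1 of 9 tested subunits was called, *nAChRalpha7*, beside 23.5% of all 7875 genes tested, and at D1 it was again 1 of 9, *nAChRalpha7*, beside 16.1% of 8220. The genotypes did not overlap for 1 of 9 subunits at D10, beside 42.1% of all genes, and for 2 of 9 at D1 (*nAChRalpha5* and *nAChRalpha7*), beside 34.1%. Both calls of *nAChRalpha7* held in all 16 alternatives, where the log2 fold change lay between 4.88 and 5.28 at D10 and between 3.79 and 4.07 at D1. Without replicate 1 of Rh1>ClkDN at D1, the lowest of its group, the D1 value was 4.07.

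With age, *nAChRalpha7* was 3.56-fold higher at D10 than at D1 in Rh1>ClkDN, a log2 fold change of 1.83 (standard error 0.15). In Rh1>Ctrl its log2 fold change between D10 and D1 was 0.67 (standard error 0.29), which was not called (edgeR adjusted p = 0.411). The difference between the genotype effects at the 2 ages was 1.17 on the log2 scale (standard error 0.35, edgeR adjusted p = 0.153 over all genes for the interaction). This difference was called by DESeq2, with scaling to library totals and without replicate 1 of Rh1>Ctrl at D10, and not in the other 17 of 20 alternatives.

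**Figure D1:**
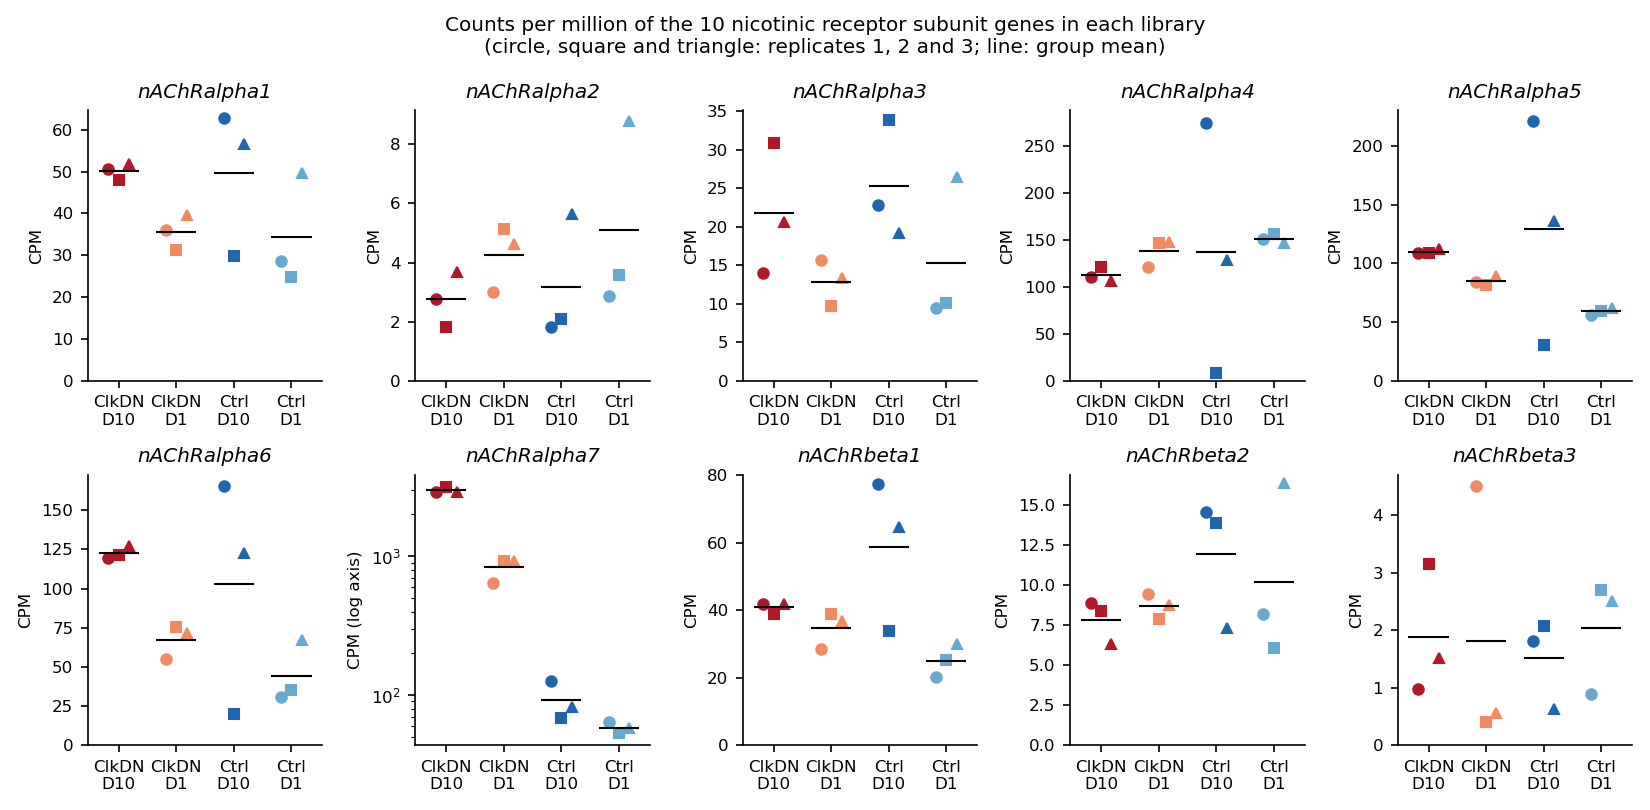
CPM of each subunit gene (y axis, linear except for *nAChRalpha7*, which has a log axis) in the 3 libraries of each group, with circles, squares and triangles for replicates 1, 2 and 3 and a line at the group mean. The *nAChRalpha7* points separate by genotype, at 638 CPM and above in Rh1>ClkDN and at 126.7 CPM and below in Rh1>Ctrl, while replicate 2 of Rh1>Ctrl at D10 lies far below its replicates for *nAChRalpha4*, *nAChRalpha5* and *nAChRalpha6*.

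*nAChRalpha5* and *nAChRalpha6* are the other 2 subunits that resemble vertebrate alpha7, and *nAChRalpha6* is the target of the insecticide spinosad. *nAChRalpha5* (FBgn0028875, chromosome 2L from 14040170 to 14094401, plus strand) was at 109, 108.6 and 112.1 CPM in Rh1>ClkDN at D10 and at 84.25, 81.9 and 89.12 CPM in Rh1>ClkDN at D1. In Rh1>Ctrl it was at 221, 30.47 and 136.3 CPM at D10 and at 56.39, 59.02 and 61.95 CPM at D1. The Rh1>ClkDN libraries lay above the Rh1>Ctrl libraries at D1, and between the lowest and the higher 2 of them at D10. Its log2 fold change between genotypes was -0.28 at D10 (standard error 0.53, edgeR adjusted p = 0.753) and 0.58 at D1 (standard error 0.18, adjusted p = 0.0531).

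*nAChRalpha6* (FBgn0032151, chromosome 2L from 9793317 to 9886250, minus strand) was at 119.7, 121.2 and 126.9 CPM in Rh1>ClkDN at D10 and at 55.09, 75.41 and 71.7 CPM in Rh1>ClkDN at D1. In Rh1>Ctrl it was at 165.5, 20.08 and 122.7 CPM at D10 and at 30.4, 35.23 and 66.98 CPM at D1. The 2 ages did not overlap in Rh1>ClkDN, and the genotypes overlapped at both ages. In Rh1>ClkDN *nAChRalpha6* rose with age, by 0.85 on the log2 scale (standard error 0.14, edgeR adjusted p = 0.000449). That call was lost when all 12 libraries shared one fit, where the value was 0.86 (adjusted p = 0.428). With *nAChRalpha7* it made 2 of 9 tested subunits called in Rh1>ClkDN with age, beside 14.6% of all 8451 genes tested. In Rh1>Ctrl with age, 0 of 9 were called by edgeR, beside 0.705% of 7239 genes. In the same test 3 had an unadjusted p under 0.05 (*nAChRalpha5*, *nAChRalpha7* and *nAChRbeta1*). The largest of these p, 0.0493 for *nAChRalpha5*, ranked 800th of the 7239 genes, so many other genes passed that looser limit too. DESeq2 called 0 in that comparison as well. The ages did not overlap for 5 of 9 subunits in Rh1>ClkDN, beside 33.8% of all genes, and for 2 of 9 in Rh1>Ctrl, beside 18.1%.

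Of the subunits that make heteromeric receptors, *nAChRalpha4* (FBgn0266347, chromosome 3L from 23206669 to 23287448, plus strand), a subunit known for its part in sleep, was at 110.2, 121.2 and 106.5 CPM in Rh1>ClkDN at D10. It was at 121.3, 146.5 and 148 CPM in Rh1>ClkDN at D1, at 275.1, 8.31 and 128.5 CPM in Rh1>Ctrl at D10, and at 151.1, 156.9 and 146.5 CPM in Rh1>Ctrl at D1. The low value in Rh1>Ctrl at D10 came from 12 counts in replicate 2. Genotypes overlapped at both ages, with log2 fold changes of -0.34 at D10 (standard error 0.79) and -0.08 at D1 (standard error 0.15). Exons of *nAChRalpha4* share 1278 bases with other annotated features, among them an antisense noncoding RNA, and the use of strand in counting was not given in the sources used here.

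*nAChRbeta1* (FBgn0000038, chromosome 3L from 4429349 to 4435993, plus strand), a beta subunit that partners several alpha subunits, was at 41.85, 38.98 and 41.73 CPM in Rh1>ClkDN at D10 and at 28.51, 38.98 and 36.69 CPM in Rh1>ClkDN at D1. In Rh1>Ctrl it was at 77.3, 33.93 and 64.68 CPM at D10 and at 20.04, 25.13 and 29.88 CPM at D1. Its 2 ages did not overlap in Rh1>Ctrl, where its log2 fold change with age was 1.23 (standard error 0.36, unadjusted p = 0.00543 and adjusted p = 0.186). A single fit of all 12 libraries called that change, at 1.25 (adjusted p = 0.0331). Between genotypes its log2 fold change was -0.57 at D10 (standard error 0.30) and 0.52 at D1 (standard error 0.24), neither of them called. The difference between these, -1.01 (standard error 0.41), had an unadjusted p of 0.0249 and an adjusted p of 0.304 in edgeR's interaction test, in which 0 of 10 subunits were called, beside 0.613% of 9135 genes.

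Several further calls appeared when an Rh1>Ctrl library that stood apart was left out. Without replicate 2 of Rh1>Ctrl at D10, *nAChRalpha4* fell by 0.80, *nAChRalpha5* by 0.66 and *nAChRbeta1* by 0.76 on the log2 scale in Rh1>ClkDN at D10 (edgeR adjusted p of 0.0228, 0.0145 and 0.00532). All genes called in that fit were 31.2% of those tested, with 11.8% lower. Without that library, 3 subunits also rose with age in Rh1>Ctrl, *nAChRalpha5* by 1.53, *nAChRalpha6* by 1.62 and *nAChRbeta1* by 1.44 (edgeR adjusted p of 0.00526, 0.0218 and 0.0171). All genes called in that fit were 2.39%, with 1.16% higher. *nAChRalpha5* was called in the interaction at -1.22 (edgeR adjusted p = 0.0423), beside 1.28% of all genes. Without replicate 3 of Rh1>Ctrl at D1, 3 subunits besides *nAChRalpha7* rose in Rh1>ClkDN at D1, *nAChRalpha5* by 0.64, *nAChRalpha6* by 1.10 and *nAChRbeta1* by 0.69 (edgeR adjusted p of 0.00925, 0.00114 and 0.04). All genes called there were 28.4%, with 17.8% higher.

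**Figure D2:**
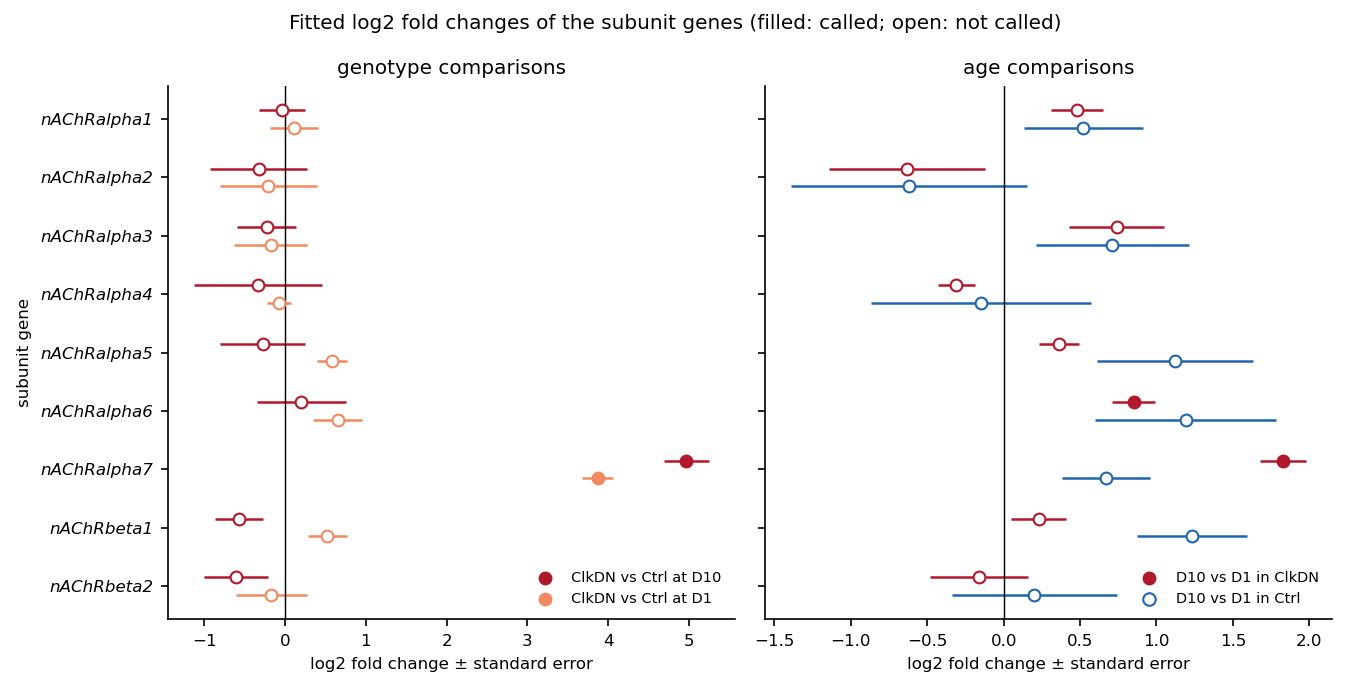
Log2 fold changes (x axis, points with standard errors) of the 9 tested subunit genes (y axis) between genotypes on the left and between ages on the right, filled where called. *nAChRalpha7* stands at 4.97 and 3.87 in the genotype comparisons, and the other subunits lie between -0.61 and 0.65.

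*nAChRalpha1*, *nAChRalpha2* and *nAChRbeta2* lie within 121 kb of each other on chromosome 3R, from 24393896 to 24515106, with gaps of 28.3 and 18.1 kb between the genes. *nAChRalpha1* was at 50.69, 47.99 and 51.94 CPM in Rh1>ClkDN at D10, 36.02, 31.3 and 39.65 in Rh1>ClkDN at D1, 62.79, 29.78 and 56.73 in Rh1>Ctrl at D10, and 28.63, 24.91 and 49.69 in Rh1>Ctrl at D1. The genotypes overlapped at both ages, and the highest D1 value in Rh1>Ctrl was that of replicate 3. *nAChRalpha2* was at 1.80 to 8.81 CPM and *nAChRbeta2* at 6.06 to 16.4 CPM over the 12 libraries, with both maxima again in replicate 3 of Rh1>Ctrl at D1. The genotype comparisons called none of these 3 neighbours, and their log2 fold changes were between -0.61 and -0.04 at D10 and between -0.21 and 0.11 at D1.

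*nAChRalpha3* (FBgn0015519, chromosome X from 8276200 to 8367169, minus strand), a further alpha subunit, was at 9.47 to 33.9 CPM and was called in none of the 5 comparisons with all libraries. Without replicate 1 of Rh1>ClkDN at D1 it rose with age in Rh1>ClkDN, by 0.94 on the log2 scale (edgeR adjusted p = 0.0204). That fit called 1540 of all 8175 genes tested, against 1235 of 8451 with all libraries. Its exons share 251 bases with *CG1636* on the other strand. *nAChRbeta3* (FBgn0031261, chromosome 2L from 545129 to 547096, plus strand) had between 2 and 21 counts in a library and was at 0.394 to 4.50 CPM. It passed the minimum of 10 counts in 3 libraries only when all 12 were fitted together. All 1532 exon bases of *nAChRbeta3* lie over exons of *Ets21C* on the other strand, so its few counts cannot be assigned with certainty.

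Levels of different genes were compared per kb of annotated exon. In Rh1>ClkDN *nAChRalpha7* came first, at 515.1 ± 26.9 CPM per kb at D10 and 144.1 ± 29.1 at D1 (SD, n = 3), and *nAChRalpha4* second, at 18.6 ± 1.26 and 22.9 ± 2.48. In Rh1>Ctrl at D1 *nAChRalpha4* came first at 25.04 ± 0.854 CPM per kb, above *nAChRalpha7* at 10.1 ± 0.871 and *nAChRbeta1* at 8.41 ± 1.65, which overlapped each other. In Rh1>Ctrl at D10 *nAChRalpha4*, *nAChRbeta1*, *nAChRalpha7*, *nAChRalpha5* and *nAChRalpha6* followed in that order, and every neighbouring pair overlapped. *nAChRalpha1*, *nAChRalpha2*, *nAChRalpha3*, *nAChRbeta2* and *nAChRbeta3* took the last 5 places in every group. Among all genes with counts in a group, the level of *nAChRalpha7* per kb was at the 99.8th percentile in Rh1>ClkDN at D10, the 98.5th in Rh1>ClkDN at D1, the 81.9th in Rh1>Ctrl at D10 and the 79.5th in Rh1>Ctrl at D1.

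As a share of the summed CPM per kb of all 10 subunits, *nAChRalpha7* made up 87.6 to 88.3% in Rh1>ClkDN at D10, 65.95 to 71.6% in Rh1>ClkDN at D1, 14.3 to 28.2% in Rh1>Ctrl at D10 and 13.2 to 18.4% in Rh1>Ctrl at D1. Over the other 9 subunits the sum was 69.2 to 72.5 CPM per kb in Rh1>ClkDN at D10, 57.01 to 64.9 in Rh1>ClkDN at D1, 30.2 to 129.7 in Rh1>Ctrl at D10 and 48.9 to 65.9 in Rh1>Ctrl at D1. Without *nAChRalpha7* the sums of the genotypes thus overlapped at both ages. The median log2 fold change between genotypes over the 9 tested subunits was -0.28 at D10, beside -0.03 over all genes, and 0.11 at D1, beside 0.04.

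**Figure D3:**
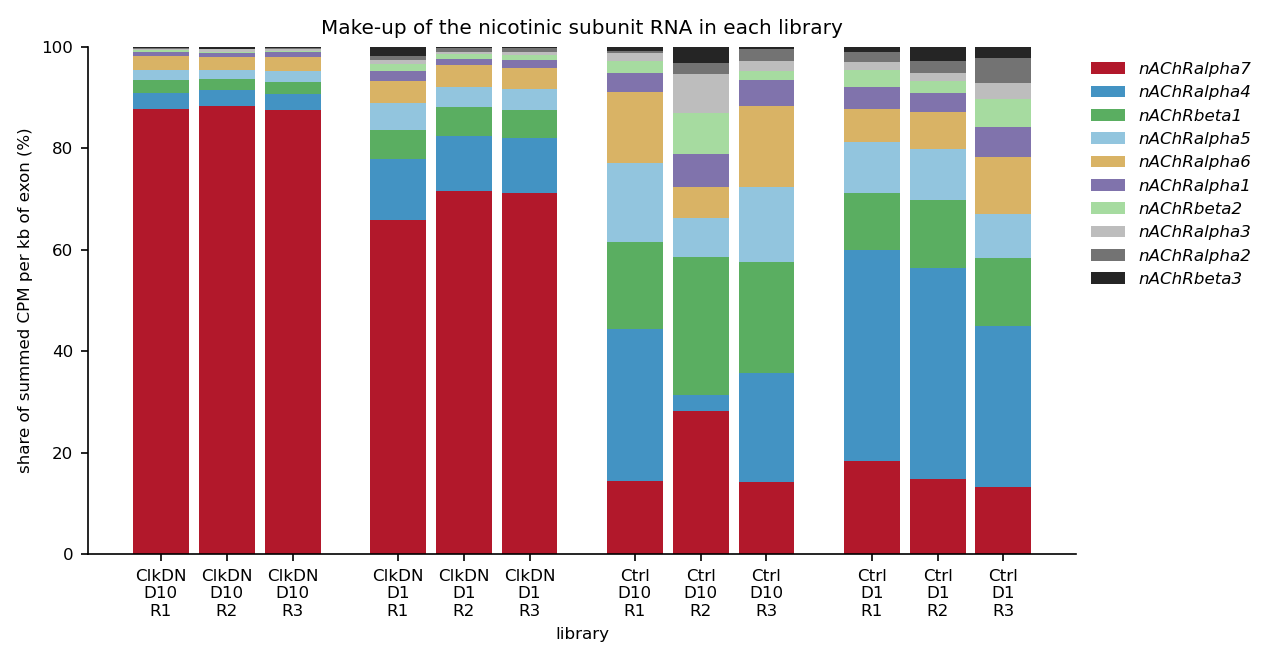
Share of each subunit (stacked colours, y axis in %) in the summed CPM per kb of exon of the 10 genes, for each library on the x axis. *nAChRalpha7* fills 87.6 to 88.3% of the bars of Rh1>ClkDN at D10, whereas the bars of Rh1>Ctrl at D1 hold 31.9 to 41.7% *nAChRalpha4*.

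Levels across the 12 libraries were set side by side with those of other genes, as Pearson's r of log2(CPM + 1) over 4282 genes averaging 50 counts or more. These r values describe libraries that share genotype, age and depth. The pattern of *nAChRalpha7* was most like that of *para* (r = 0.998), which encodes the voltage-gated sodium channel, then *Gr8a* (r = 0.994), a gustatory receptor gene, and *CG33111* (r = 0.994). *Gr8a* averaged 37.7 and 12.65 CPM in Rh1>ClkDN at D10 and D1, and 0.191 and 0 CPM in Rh1>Ctrl. It thus reached the mean count only through Rh1>ClkDN, and its r says little about levels within Rh1>Ctrl. Mean expression of *para* was 24604.4 CPM in Rh1>ClkDN at D10, 3994.5 in Rh1>ClkDN at D1, 321.5 in Rh1>Ctrl at D10 and 164.9 in Rh1>Ctrl at D1. Its order over the groups was that of *nAChRalpha7*. *nAChRalpha4* was most like *Ephrin* (r = 0.986), a guidance ligand, *Rad23* (r = 0.984), a DNA repair and proteasome shuttle factor, and *ova* (r = 0.983). In replicate 2 of Rh1>Ctrl at D10 *nAChRalpha4* was at 8.31 CPM, against 106.5 to 275.1 CPM in all other libraries. The r values of *nAChRalpha4* thus rest largely on that library and say little about the others. *nAChRalpha5* was most like *CG42402* (r = 0.948), *CG17684* (r = 0.939) and *jim* (r = 0.93), a zinc finger protein. Within the family, *nAChRalpha5* and *nAChRalpha6* were alike (r = 0.932), and both were lowest in replicate 2 of Rh1>Ctrl at D10, whereas r between *nAChRalpha7* and another subunit was at most 0.544.

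Beside *nAChRalpha7* on the X chromosome, the table held 3 genes that start within 50 kb of its start. *kek5*, which encodes a leucine-rich repeat membrane protein, starts 4.73 kb upstream on the other strand and rose in Rh1>ClkDN by 2.32 on the log2 scale at D10 and by 1.66 at D1 (standard errors 0.21 and 0.19, edgeR adjusted p of 0.000128 and 0.000321). The transporter gene *out*, 26.3 kb downstream and with at most 62 counts, rose by 2.16 at D10 (standard error 0.65, adjusted p = 0.0418) and was at 1.09 at D1 (adjusted p = 0.409). *CG8051*, with at most 27 counts, was at -0.10 at D10 and -0.13 at D1. *nAChRalpha7* itself shares no exon bases with another annotated gene.

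**Figure D4:**
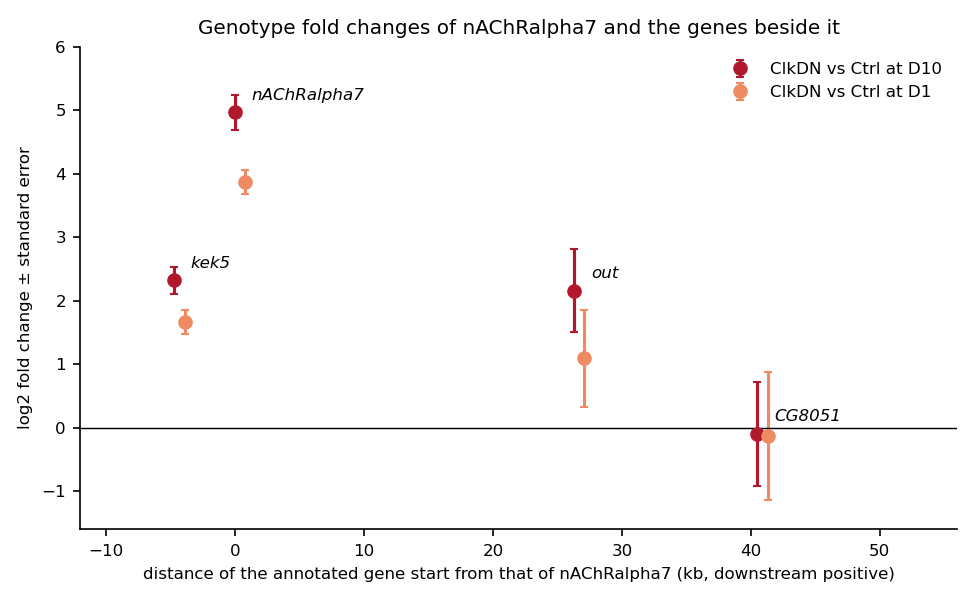
Log2 fold change between genotypes (y axis, with standard errors) of *nAChRalpha7* and of the genes that start within 50 kb of it, against the distance between gene starts in kb (x axis), at D10 and at D1, with D1 points shifted slightly to the right. *nAChRalpha7* at 4.97 and 3.87 lies above *kek5* at 2.32 and 1.66.

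Genes that make, clear or respond to acetylcholine, with partners and modifiers of its receptors, were followed as a list of 14. Of these, 13 were tested. At D10, 2 rose and 2 fell in Rh1>ClkDN, with 14.5% of all genes called higher and 9.07% lower, and the median log2 fold change of the list was 0.52, beside -0.03 over all genes. *Ace*, which encodes the acetylcholinesterase that breaks the transmitter down, was at 842.3, 1066 and 947.6 CPM in Rh1>ClkDN and at 644.5, 403 and 577.5 CPM in Rh1>Ctrl. Its groups did not overlap, and it rose by 0.78 (standard error 0.22, edgeR adjusted p = 0.0333). *mAChR-B*, a muscarinic receptor, was at 12.6, 7.44 and 9.998 CPM in Rh1>ClkDN and at 0.726, 2.77 and 3.98 CPM in Rh1>Ctrl. Its log2 fold change was 1.91 (standard error 0.57, edgeR adjusted p = 0.0406). With 64, 33 and 46 counts in Rh1>ClkDN and 2, 4 and 19 in Rh1>Ctrl, it passed the count filter only through the group in which it was high. Its D10 call is therefore given as a description. The 2 genes that fell encode partners of nicotinic receptors.

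*RIC-3*, a chaperone of nicotinic receptor assembly, was at 115.1, 148.5 and 133.2 CPM in Rh1>ClkDN at D10 and at 239.2, 164.8 and 217.7 CPM in Rh1>Ctrl at D10, with no overlap. It fell by 0.68 at D10 (standard error 0.21, edgeR adjusted p = 0.0485) and by 0.72 at D1 (standard error 0.18, adjusted p = 0.0207). *Hasp*, a scaffold of the synaptic cleft, fell by 1.09 at D10 (standard error 0.33, adjusted p = 0.0439). At D1, 1 gene of the list rose and 2 fell, with 10.2% of all genes called higher and 5.86% lower, and the median was 0.27, beside 0.04. *VAChT*, the vesicular transporter of acetylcholine, rose by 1.01 at D1 (standard error 0.20, adjusted p = 0.00649), and *hig*, a cleft protein that holds nicotinic receptors at the synapse, fell by 0.81 (standard error 0.20, adjusted p = 0.0204). With one replicate left out at a time, *VAChT* at D1 was called in 6 of 6 fits, and *hig* and *RIC-3* in 1 of 6. At D10 the list held between 0 and 4 genes called higher and between 0 and 2 called lower in such fits. Over all genes, those D10 fits called between 552 of 7008 and 2450 of 7841. Without replicate 2 of Rh1>Ctrl at D10, 3 rose (*Ace*, *VAChT* and *mAChR-B*) and 2 fell (*Hasp* and *RIC-3*), beside 19.5% of all genes called higher and 11.8% lower. Without replicate 3 of Rh1>Ctrl at D1, 2 rose (*ChT* and *VAChT*) and 2 fell (*RIC-3* and *hig*) at D1, beside 17.8% and 10.6%.

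The other Cys-loop channels, 12 genes gated by GABA, glutamate, histamine or pH, included 9 that were tested at D10 and 10 at D1. At D10, 4 were called higher in Rh1>ClkDN and 1 lower, beside 14.5% and 9.07% of all genes, and at D1, 3 were called higher and 1 lower, beside 10.2% and 5.86%. The median log2 fold change of those tested was 1.09 at D10 and 0.60 at D1, beside -0.03 and 0.04 over all genes. *pHCl-1*, a pH-sensitive chloride channel, was at 1306, 1500.8 and 1268.8 CPM in Rh1>ClkDN at D10 and at 492.1, 213.3 and 341.6 CPM in Rh1>Ctrl at D10. It rose by 1.92 at D10 (standard error 0.29, edgeR adjusted p = 0.00218) and by 1.73 at D1 (standard error 0.18, adjusted p = 0.000163). *alka*, a chloride channel of alkaline taste, rose by 2.69 at D10 and 2.02 at D1 (adjusted p of 0.000533 and 0.00868). At D10 *alka* had 124, 112 and 145 counts in Rh1>ClkDN and 12, 6 and 18 in Rh1>Ctrl. It thus passed the D10 count filter only through the group in which it was high, and its D10 call is given as a description. *SecCl* was also called higher at both ages, but at D10 it had 54, 70 and 13 counts in Rh1>ClkDN and 3, 0 and 3 in Rh1>Ctrl. At D1 it had 57, 64 and 101 counts in Rh1>ClkDN and 17, 6 and 17 in Rh1>Ctrl. At both ages *SecCl* passed the count filter only through the group in which it was high, so both calls are given as a description. *Rdl*, the GABA-gated channel, rose by 1.17 at D10 (standard error 0.35, adjusted p = 0.0404).

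*HisCl1*, a histamine-gated chloride channel known in photoreceptors and glia, was the Cys-loop gene that fell. It was at 30.3, 20.3 and 25.2 CPM in Rh1>ClkDN at D10 and at 63.5, 36.01 and 71.2 CPM in Rh1>Ctrl at D10, and fell by 1.22 (standard error 0.30, edgeR adjusted p = 0.0196). At D1 it was at 30.4, 35.4 and 26.3 CPM in Rh1>ClkDN and at 140.3, 120.3 and 78.9 CPM in Rh1>Ctrl, and fell by 1.83 (standard error 0.25, adjusted p = 0.00084). The genotypes did not overlap at either age. With one replicate left out at a time, *pHCl-1* and *alka* were called in all 6 fits at each age, *HisCl1* in 6 of 6 at D1 and 2 of 6 at D10, *Rdl* in 2 of 6 at D10, and *SecCl* in 4 of 6 at D1 and in 2 of the 3 that tested it at D10.

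**Figure D5:**
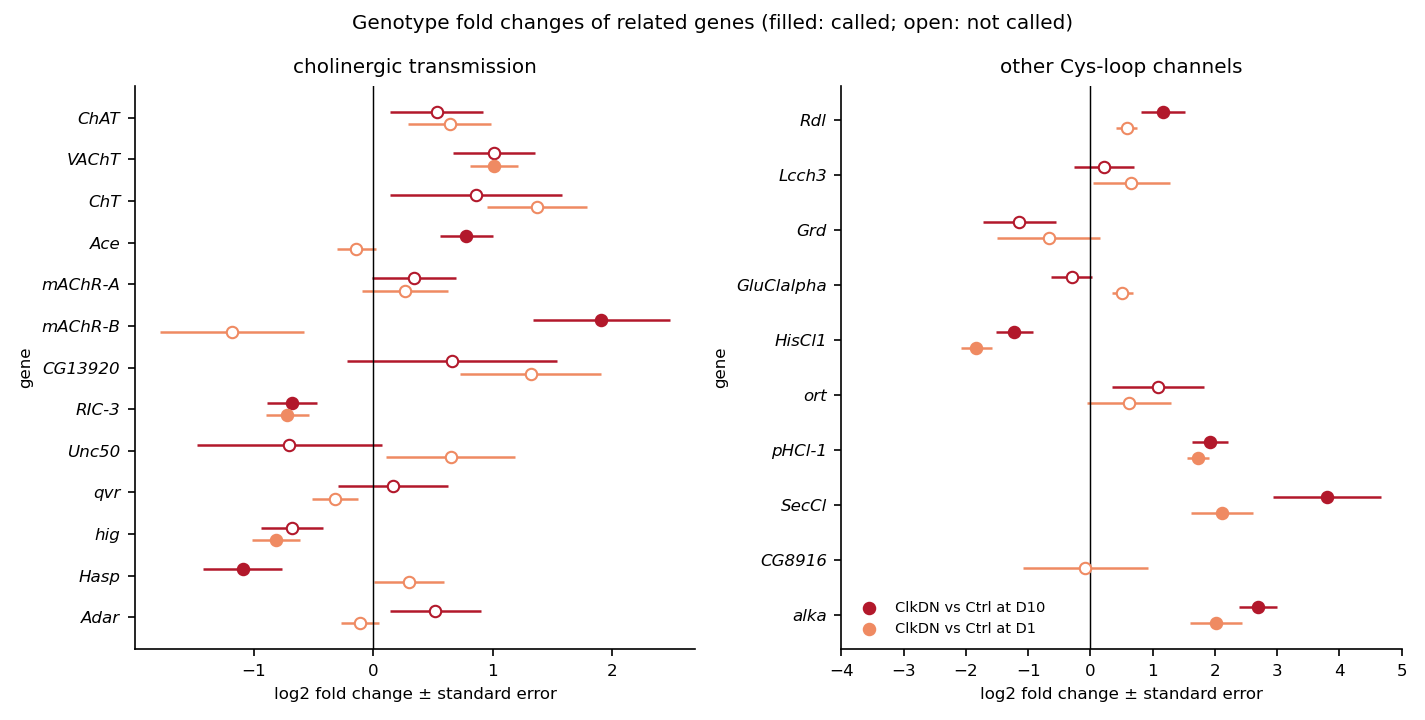
Log2 fold changes between genotypes (x axis, with standard errors) at D10 and at D1 for the tested genes of acetylcholine transmission on the left and the other Cys-loop channels on the right (y axis), filled where called. *HisCl1* lies at -1.22 and -1.83 while *pHCl-1*, *alka* and *SecCl* lie above 1.5 at both ages.

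Markers of other cells moved as well, and their part in the levels of the subunits was not tested. All markers are to be read beside the 23.5% of genes called at D10 and the 16.1% called at D1. Of 8 markers of neurons that use other transmitters, 0 were called at D10, and 2 (*Gad1* and *VAChT*) were higher in Rh1>ClkDN at D1. Their summed level was 373.4 to 429.7 CPM in Rh1>ClkDN at D10, 341.7 to 453 in Rh1>ClkDN at D1, 238.2 to 433 in Rh1>Ctrl at D10 and 223.3 to 284.6 in Rh1>Ctrl at D1. Of 6 glial markers, 2 (*Eaat1* and *moody*) were higher in Rh1>ClkDN at both ages, with sums of 1333.8 to 1406.9 CPM in Rh1>ClkDN at D10, 665 to 711.7 in Rh1>ClkDN at D1, 180.9 to 207.2 in Rh1>Ctrl at D10 and 114.2 to 170 in Rh1>Ctrl at D1. Most of that sum in Rh1>ClkDN was *Eaat1*, at 1280.2 CPM on average at D10 and 561.3 at D1. The median log2 fold change between genotypes over the tested glial markers was -0.44 at D10 and 0.32 at D1, and *repo* (-1.24), *alrm* (-0.44) and *Gs2* (-0.49) had negative values at D10. The glial markers *repo* and *alrm* were not called between genotypes, and no marker of either list was at 0 in all libraries. The 4 general neuronal markers (*elav*, *nSyb*, *brp* and *Syt1*) were not called between genotypes at either age. Of the remaining markers, 0 of 4 for inner photoreceptors were called, 1 of 3 for muscle (*Mhc*) was lower in Rh1>ClkDN at both ages, and 1 of 3 for cone and pigment cells was higher at both ages, the gene *w*, copies of which also mark transgenes in these flies.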

How the data were processed

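Outer photoreceptor nuclei were immuno-enriched from 12 samples, and their RNA was sequenced with a kit for low input. The authors deposited a table of counts per gene under a name that calls them normalized. All values are whole numbers and library totals differ by 4.15-fold, so they were treated as raw counts. The submitters' processing notes name Trimmomatic, STAR, SAMtools and DESeq2 without versions, and the builds dm6 and BDGP6. Strand setting and annotation release are not given in the sources used here.

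Genes reaching 10 counts in 3 or more libraries of a fit were tested with edgeR 4.0.16 (R 4.3.3) after TMM normalization, in the quasi-likelihood test, pair by pair, with Benjamini-Hochberg adjustment over all genes tested. Calls needed a fold change over 1.5 with an adjusted p under 0.05, and in the interaction of genotype and age over 12 libraries only the adjusted p. Standard errors were obtained by dividing the size of the log2 value by the root of the F statistic. CPM carry the SD of a group's 3 libraries. Each library was a pool of 400 flies and is a biological replicate in the study's methods. Counting precision is limited by depth, from 1356529 to 5635951 counts.

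Positions, exon lengths and symbols are from Ensembl release 115 (BDGP6), which matched 13866 of 13929 IDs. The members and the lists (acetylcholine genes, other Cys-loop channels, cell markers) were chosen with earlier results of these data known. All 10 subunits are named, genes of the lists where called between genotypes, and the 3 genes most like each of the 3 subunits with the highest mean CPM. Neighbours of *nAChRalpha7* within 50 kb were added after its values were seen, and so were *mAChR-B* and *Ace* outside these calls. Alternatives were DESeq2 1.42.0, limma 3.58.1 on log2(CPM + 1) and log2(CPM + 0.5), library totals, no filter, a replicate block, one fit of 12 libraries, each replicate left out and, chosen after seeing the data, TMM from all genes. Calls were repeated at an adjusted p under 0.01 and with no fold threshold. The tests were tested on simulated data. Plots used Python 3.11.15 with pandas 2.3.3 and matplotlib 3.10.9.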

Additional observations from a re-analysis of the deposited data

Results flagged for a closer look

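*mAChR-B*, the muscarinic receptor gene, differed between genotypes in opposite directions at the 2 ages, with every library on the same side. At D10 it was at 7.44 to 12.6 CPM in Rh1>ClkDN and at 0.726 to 3.98 CPM in Rh1>Ctrl, and at D1 at 3.15 to 4.33 CPM in Rh1>ClkDN and at 4.49 to 17.6 CPM in Rh1>Ctrl. The same values gave opposite directions with age in Rh1>ClkDN and Rh1>Ctrl. The difference of the effects was 3.17 on the log2 scale (standard error 0.86, edgeR adjusted p = 0.106 over all genes for the interaction), which was not called. It rests on few counts, 2, 4 and 19 in Rh1>Ctrl at D10, and on replicate 3 of Rh1>Ctrl at D1, a library that stood apart, at 17.6 CPM against 5.29 and 4.49 in its replicates. Without that replicate the log2 fold change between genotypes at D1 was -0.27 (edgeR adjusted p = 0.716) and the difference of the effects was 2.29.

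*Ace* had opposite directions with age in the 2 genotypes, with no overlap between ages in either. It was at 842.3 to 1066 CPM at D10 and 517.5 to 738.9 CPM at D1 in Rh1>ClkDN, and at 403 to 644.5 CPM at D10 and 682.7 to 777.3 CPM at D1 in Rh1>Ctrl. The difference of the effects was 0.99 on the log2 scale (standard error 0.33, edgeR adjusted p = 0.204 for the interaction), which was not called.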

How the results depend on the processing

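*nAChRalpha7* was called in both genotype comparisons and with age in Rh1>ClkDN under every alternative. Of 770 subunit fold changes under alternatives, 690 kept their direction and side of the threshold, 15 were newly called, 1 lost its call (*nAChRalpha6* with age in Rh1>ClkDN, 0.86 in one fit of 12 libraries) and 64 changed sign, 0 of them called. The causes were not tested. One fit of 12 libraries called 1 subunit with age in Rh1>Ctrl (*nAChRbeta1*) and 1 in Rh1>ClkDN. DESeq2 and scaling to library totals each called 1 in the interaction (*nAChRalpha7*, 1.18 and 1.17).

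Between genotypes at D10, *nAChRalpha1* changed sign under DESeq2 (0.01), library totals (0.07), no filter (0.03), limma (0.05 with both pseudocounts) and TMM from all genes (0.03). Limma with pseudocounts of 1 and 0.5 turned *nAChRalpha4* (0.68 and 0.70) and *nAChRalpha5* (0.13 and 0.14). In the interaction, *nAChRalpha2* changed sign with library totals (0.06) and limma (0.04 with both), *nAChRalpha3* without a filter (-0.07), with limma (-0.13 with both) and with TMM from all genes (-0.07), and limma turned *nAChRalpha4* (0.84 and 0.87) and *nAChRalpha6* (0.04 with both).

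Samples with the same replicate number did not deviate together (r between -0.108 and 0.038), so these values gave no sign of pairing by number. With 3 libraries in a group, this cannot exclude that such samples were handled together. A replicate block left the subunits called at 1, 1, 0, 2 and 0 in the comparisons of genotype at D1 and D10, age in Rh1>Ctrl and Rh1>ClkDN, and the interaction. It turned *nAChRalpha1* (0.03), *nAChRalpha4* (0.35) and *nAChRalpha5* (0.07) between genotypes at D10, and *nAChRalpha3* (-0.06) and *nAChRalpha4* (0.03) in the interaction. Genes called in the whole table were 1096 with the block against 1852 at D10, and 30 against 56 in the interaction.

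With one replicate left out at a time, subunits called ranged from 1 to 4 at D1 and at D10, 0 to 3 with age in Rh1>Ctrl and 0 to 1 in the interaction. Over all genes, the same fits called from 748 of 7761 to 2206 of 7772 at D1 and from 552 of 7008 to 2450 of 7841 at D10. With age in Rh1>Ctrl they called from 1 of 6713 to 171 of 7152, and in the interaction from 12 of 8929 to 117 of 9118. Fold changes that changed sign ranged, at D1, from -0.10 to 0.49 (*nAChRalpha1*), -0.51 to 0.46 (*nAChRalpha2*), -0.45 to 0.48 (*nAChRalpha3*), -0.10 to 0.03 (*nAChRalpha4*) and -0.46 to 0.36 (*nAChRbeta2*). At D10 they ranged from -0.22 to 0.17 (*nAChRalpha1*), -0.48 to 0.10 (*nAChRalpha3*), -0.80 to 0.66 (*nAChRalpha4*), -0.66 to 0.36 (*nAChRalpha5*) and -0.20 to 0.73 (*nAChRalpha6*). With age in Rh1>Ctrl they ranged from -1.40 to 0.08 (*nAChRalpha2*), -1.08 to 0.35 (*nAChRalpha4*) and -0.18 to 0.74 (*nAChRbeta2*). In the interaction they ranged from -0.40 to 0.10 (*nAChRalpha1*), -0.68 to 0.73 (*nAChRalpha2*), -0.58 to 0.28 (*nAChRalpha3*), -0.71 to 0.75 (*nAChRalpha4*) and -0.85 to 0.08 (*nAChRalpha6*).

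Over the whole table, age in Rh1>Ctrl had 51 genes called, against 189 by DESeq2, 147 without a filter, 235 in one fit of 12 libraries and 5 at an adjusted p under 0.01. Age in Rh1>ClkDN had 1235, against 287 in one fit and 808 at 0.01. The interaction had 56, against 269 by DESeq2, 108 with library totals, 105 without a filter and 11 at 0.01. At 0.01, 744 were called at D1 and 921 at D10. The low counts of *nAChRalpha2*, *nAChRbeta2* and *nAChRbeta3* leave small differences of these genes undetectable at this depth.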
